A study of Homo sapiens with 4 samples.

Results

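Knockdown of ARID1A in Huh7 cells was compared with a control hairpin through the open-chromatin peak lists of the DMSO-treated cells. Regions were called lost where a peak of the control list (shControl) shared no base with any peak of the knockdown list (shARID1A), and gained in the converse case. The rule gave 14428 lost and 8079 gained regions, and left 37764 shControl and 37621 shARID1A peaks as kept. Together the 2 lists held 97892 of the 192435 peaks of the series. The series has 4 ATAC-seq libraries, 1 per group, each from nuclei of 50000 cells. They were shControl in DMSO, shControl after 6 h of 100 nM rapamycin, shARID1A in DMSO and shARID1A after the same rapamycin treatment. Huh7 is an established human liver cancer line, and all groups share this parent line. The hairpin sequences, the number of clones and the remaining ARID1A protein were not analysed here. ATAC-seq uses a transposase that inserts adapters where DNA is not covered by nucleosomes, so a peak marks an accessible stretch. No replicate exists on either side, so every count below describes these libraries alone, the spread between cultures is unknown, and no p-value is given.

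ARID1A binds DNA within BAF, a class of SWI/SNF complex and thus a remodelling machine that uses ATP to slide or evict nucleosomes. BAF is known to act mainly at enhancers, where it keeps sites open for factors such as AP-1, TEAD and FOXA, while promoters of housekeeping genes are held open by other means as well, among them CpG-rich sequence. In hepatocytes FOXA and HNF4A open and maintain liver enhancers, and TEAD proteins recruit the Hippo effector YAP.

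The letters of a few promoters are printed as examples, and they do not show how common each kind of start site was. RefSeq promoter windows of GRCh38.p14 were used, and each line gives 250 bases ending at the base before a start site, 5′ to 3′ in the direction of the gene. Capitals mark matches on either strand to these motifs, which may overlap: AP-1 (TGANTCA), TEAD (GGAATG), FOXA (TGTTTAC or TGTTTGC), HNF4A (CAAAGTCCA), ETS (CCGGAAG), SP1 (GGGCGG) and NFY (CCAAT). A match is a description of letters and not a bound site. Over all 34943 windows of 300 bases in the table, the share with a match was 7.72% for AP-1, 14.04% for TEAD, 7.17% for FOXA, 0.383% for HNF4A, 10.2% for ETS, 44.9% for SP1 and 34.6% for NFY. Searches for the longer motifs of CTCF, NRF1 and HNF1, given by name alone, and for CRE (TGACGTCA) matched 2.41%, 1.23%, 0.0487% and 1.84% of the windows, and none of these matched in the sequences shown.

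The lost examples are start sites of UBE2V1 and CDC25B, 2 genes that kept a promoter peak elsewhere, 3 CpG-poor promoters with AP-1 or FOXA matches (KCNJ16, SPATA12 and IGF1) and that of the bile acid receptor gene NR1H4. UBE2V1 encodes a ubiquitin-conjugating enzyme variant at chr20:50115958-50116207 (minus strand). CDC25B, at chr20:3786701-3786950 (plus strand), encodes a cell-cycle phosphatase and shares the lost peak with the divergent gene CENPB. KCNJ16, a potassium channel gene, lies at chr17:70074975-70075224 (plus strand), SPATA12 at chr3:57060414-57060663 (plus strand), IGF1, the insulin-like growth factor gene, at chr12:102481748-102481997 (minus strand), and NR1H4 at chr12:100503110-100503359 (plus strand).
UBE2V1: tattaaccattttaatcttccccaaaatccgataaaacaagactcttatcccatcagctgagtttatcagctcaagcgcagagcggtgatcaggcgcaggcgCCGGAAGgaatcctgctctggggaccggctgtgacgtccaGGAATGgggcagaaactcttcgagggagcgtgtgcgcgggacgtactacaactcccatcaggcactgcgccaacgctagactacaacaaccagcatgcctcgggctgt
CDC25B: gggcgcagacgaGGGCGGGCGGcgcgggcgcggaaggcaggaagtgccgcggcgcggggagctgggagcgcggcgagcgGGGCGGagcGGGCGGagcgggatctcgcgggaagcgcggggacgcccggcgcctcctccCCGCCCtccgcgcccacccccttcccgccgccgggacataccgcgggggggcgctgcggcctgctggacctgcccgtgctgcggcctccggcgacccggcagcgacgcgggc
KCNJ16: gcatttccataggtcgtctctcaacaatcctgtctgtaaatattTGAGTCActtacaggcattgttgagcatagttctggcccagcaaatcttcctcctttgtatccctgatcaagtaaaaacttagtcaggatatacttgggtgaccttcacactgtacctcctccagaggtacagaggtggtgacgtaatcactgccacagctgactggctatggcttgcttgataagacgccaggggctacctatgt
SPATA12: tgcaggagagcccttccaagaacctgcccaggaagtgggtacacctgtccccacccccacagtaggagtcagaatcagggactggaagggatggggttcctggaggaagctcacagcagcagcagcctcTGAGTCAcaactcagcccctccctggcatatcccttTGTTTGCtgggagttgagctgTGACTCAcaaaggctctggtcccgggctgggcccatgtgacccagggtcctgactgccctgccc
IGF1: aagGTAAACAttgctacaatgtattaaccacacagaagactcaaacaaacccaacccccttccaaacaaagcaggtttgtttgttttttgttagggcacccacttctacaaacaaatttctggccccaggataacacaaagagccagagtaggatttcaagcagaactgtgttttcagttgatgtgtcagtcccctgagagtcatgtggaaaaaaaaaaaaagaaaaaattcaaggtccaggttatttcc
NR1H4: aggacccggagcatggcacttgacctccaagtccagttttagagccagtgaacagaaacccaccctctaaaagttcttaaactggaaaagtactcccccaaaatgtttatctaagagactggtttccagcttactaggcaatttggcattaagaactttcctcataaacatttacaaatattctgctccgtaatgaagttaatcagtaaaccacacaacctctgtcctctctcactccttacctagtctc
The CDC25B stretch held 5 SP1 matches and the SPATA12 stretch 3 matches, for AP-1 and FOXA. NR1H4 held no match to any motif searched. The ratio of observed to expected CpG dinucleotides over the window was 0.907 at UBE2V1 and 1.08 at CDC25B, against 0.242 at KCNJ16, 0.0387 at SPATA12, 0 at IGF1 and 0.158 at NR1H4.

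The gained examples are MLLT1 (a subunit gene of the super elongation complex), ELOVL3 (a fatty acid elongase gene), KLF15 (a transcription factor gene of liver metabolism), AHSG (the hepatocyte secretory protein fetuin-A) and BCL7A (a SWI/SNF subunit). Their stretches are chr19:6279976-6280225 (minus strand), chr10:102226049-102226298 (plus), chr3:126357409-126357658 (minus), chr3:186612810-186613059 (plus) and chr12:122021634-122021883 (plus).
MLLT1: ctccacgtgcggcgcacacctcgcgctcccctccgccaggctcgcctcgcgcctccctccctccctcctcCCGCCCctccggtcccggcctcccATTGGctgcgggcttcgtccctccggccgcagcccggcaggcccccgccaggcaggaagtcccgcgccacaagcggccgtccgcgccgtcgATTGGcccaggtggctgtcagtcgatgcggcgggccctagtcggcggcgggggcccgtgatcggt
ELOVL3: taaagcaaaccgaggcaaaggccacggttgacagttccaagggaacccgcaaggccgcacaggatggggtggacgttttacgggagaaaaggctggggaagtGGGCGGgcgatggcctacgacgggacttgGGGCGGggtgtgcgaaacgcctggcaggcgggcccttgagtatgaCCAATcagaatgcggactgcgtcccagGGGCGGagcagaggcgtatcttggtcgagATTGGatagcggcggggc
KLF15: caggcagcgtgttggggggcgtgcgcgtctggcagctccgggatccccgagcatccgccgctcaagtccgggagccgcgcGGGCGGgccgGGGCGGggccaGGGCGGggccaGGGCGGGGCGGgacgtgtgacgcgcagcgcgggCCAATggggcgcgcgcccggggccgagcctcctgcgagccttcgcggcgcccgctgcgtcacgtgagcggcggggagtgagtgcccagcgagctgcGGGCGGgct
AHSG: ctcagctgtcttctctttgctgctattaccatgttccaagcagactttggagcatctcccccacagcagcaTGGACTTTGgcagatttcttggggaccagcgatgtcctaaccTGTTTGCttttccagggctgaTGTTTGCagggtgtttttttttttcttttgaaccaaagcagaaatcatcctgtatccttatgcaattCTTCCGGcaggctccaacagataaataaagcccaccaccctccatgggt
BCL7A: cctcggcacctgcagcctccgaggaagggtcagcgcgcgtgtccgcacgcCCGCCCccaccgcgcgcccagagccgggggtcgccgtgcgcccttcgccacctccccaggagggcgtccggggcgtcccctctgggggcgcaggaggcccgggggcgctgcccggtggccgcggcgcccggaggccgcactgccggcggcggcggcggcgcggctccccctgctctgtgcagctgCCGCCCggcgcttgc
Of these gained stretches, those of MLLT1, ELOVL3, KLF15 and BCL7A held SP1 matches and had a CpG ratio of 0.963, 0.956, 1.06 and 0.909. The AHSG promoter was CpG-poor, at 0.170, and held matches to HNF4A, FOXA and ETS.

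Lost regions were mostly narrow, weakly scored sites away from genes' start sites. Of the shControl peaks 27.6% were lost (exact 95% binomial interval 27.3 to 28.0%), and 17.7% of the shARID1A peaks were gained (17.3 to 18.0%). These intervals, and all others given here, cover counting error only. In the upper 50% of each list by score, 1150 peaks (4.41%) were lost and 468 (2.05%) gained. The read depth of the libraries is unknown. The scores are the authors' own values on a scale that the sources used here do not give, and they served only to rank peaks within a list. Rank is given below as a percent of list length, with low values for strong peaks.

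Promoter peaks, centred within 1000 bp of a transcription start site (TSS) by the authors' distance, were lost in 760 of 13050 cases (5.82%) and gained in 857 of 13067 (6.56%). Distal peaks were lost in 13668 of 39142 cases (34.9%) and gained in 7222 of 32633 (22.1%). Within genes the class of the authors' annotation mattered. The class shares given here include peaks within 1000 bp of a TSS, and of 3059 exonic shControl peaks 1508 were distal. Peaks in intron 1 were lost in 29.2% of cases and peaks in later introns in 38.1%, while exonic peaks were lost in 15.4%. Intergenic peaks were lost in 35.6% and peaks at transcript ends (TTS) in 27.6%. For gains the order was different, with 24.7% at transcript ends, 23% in later introns, 22.02% in intergenic sequence, 18.3% in intron 1 and 15.9% in exons. Upstream and downstream distal peaks were lost at similar shares, 34.4% (33.7 to 35.1%) and 35.4% (34.7 to 36.0%).

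The median lost peak was 451 bp wide and sat at 80.6% of the ranked list, against 800 bp and 36.6% for kept shControl peaks. Gained peaks had a median width of 446 bp and a median rank of 85.05%, against 844 bp and 41.6% for kept shARID1A peaks. Of shControl peaks up to 500 bp wide 55.2% were lost, and of those over 1500 bp 0.715%. Few calls lay at the border of the rule. Among lost peaks 130 (0.901%) lay within 200 bp of a shARID1A peak and 9355 (64.8%) over 10 kb from one, and among kept shControl peaks 69 (0.183%) shared under 10% of the shorter peak. The 36847 kept regions that paired peak for peak were wider in shARID1A in 59.5% of cases, 68.0% at promoters and 55.5% at distal sites, with medians of 801 bp in shControl and 842 bp in shARID1A.

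Distal sites were lost more often than promoters of the same rank, whereas for gains the gap was smaller. In the 5th decile of score rank 16.4% of distal and 3.52% of promoter shControl peaks were lost, and 7.27% of distal and 4.46% of promoter shARID1A peaks were gained. In the 8th decile 54.0% of distal and 27.2% of promoter shControl peaks were lost (52.6 to 55.5% and 23.3 to 31.3%). In the same decile of the shARID1A list 27.9% of distal and 30.8% of promoter peaks were gained (26.5 to 29.3% and 26.6 to 35.2%). Weighted to the deciles of promoter peaks, the lost share was 12.2% at distal sites against 5.82% at promoters, and the gained share 6.77% against 6.56%. By class, over distal peaks alone, the weighted lost share was 12.6% in introns, 12.4% in intergenic sequence, 9.16% in exons and 9.64% at transcript ends. The weighted gained share was 6.36%, 7.08%, 8.05% and 7.60% in the same order. Among the strongest 10% of peaks 1 distal and 0 of 3950 promoter peaks were lost, and the exact 95% interval for promoters reaches 0.0933%.

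**Figure D1:**
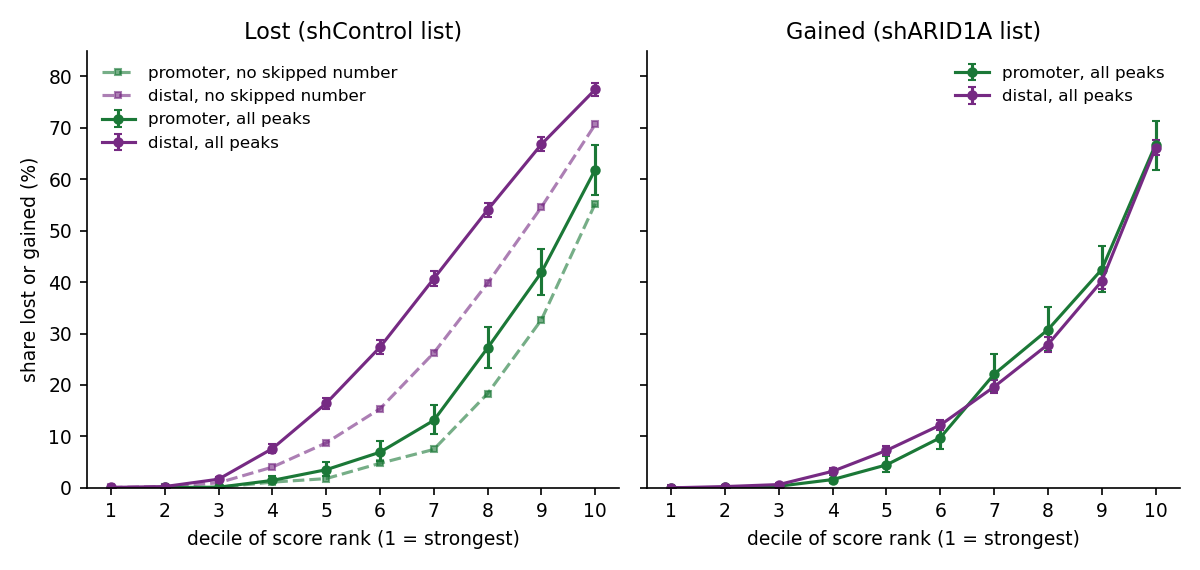
Share of peaks lost (left, shControl list) and gained (right, shARID1A list) by decile of score rank, for promoter and distal peaks, with exact 95% intervals. In the 8th decile the lost share is 54.0% at distal sites and 27.2% at promoters, while the gained shares are 27.9% and 30.8%.

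A numbering gap in the knockdown list touches these losses. Peaks are numbered in genome order, and the shARID1A DMSO list skips 6666 numbers (12.7%) while the shControl DMSO list skips none. No label or file header used here says what those numbers stood for. They fall in 5206 intervals between listed neighbours, with a median length of 106639 bp against 19093.5 bp for the 40470 intervals without a skip. These intervals held 5968 lost peaks (41.4%), with 8460 outside them. If each skipped number stood for 1 lost peak of its interval wherever one lay there, at most 4370 lost peaks would be taken up and 10058 (19.3% of the shControl list) would be left.

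The rise of loss with distance beyond 10 kb was not seen outside those intervals. Over all shControl peaks the lost share rose from 3.55% within 100 bp of a TSS to 25.5% at 1 to 2.5 kb, 34.4% at 10 to 25 kb and 43.7% at 100 to 500 kb. Outside the intervals with a skip it was 19.1% at 1 to 2.5 kb, 24.99% at 10 to 25 kb and 21.8% at 100 to 500 kb. Gains showed no rise beyond 1 kb, with 21.7% at 1 to 2.5 kb, 22.4% at 10 to 25 kb and 20.0% at 100 to 500 kb. Kept peaks rarely fall between listed neighbours, so the intervals with a skip hold mostly lost peaks by construction, and leaving them out removes more peaks where genes are sparse. The part of the skipped numbers in the rise was not tested. Outside the intervals the distal excess at equal rank was smaller and kept its direction, with weighted lost shares of 8.81% at distal sites and 4.44% at promoters.

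**Figure D2:**
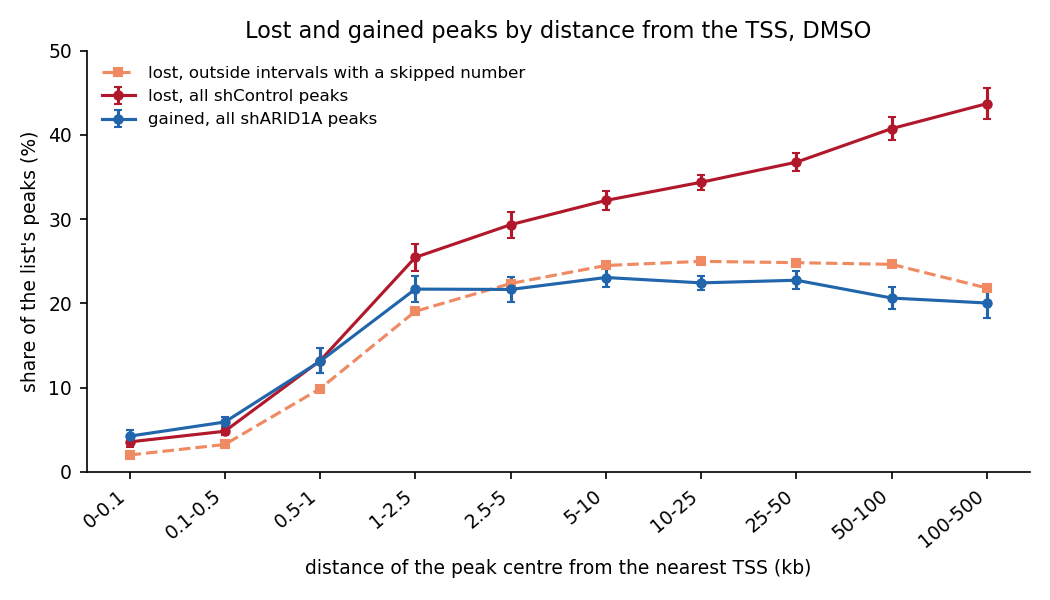
Share of shControl peaks lost and of shARID1A peaks gained by distance of the peak centre from the nearest TSS (kb), with exact 95% intervals, and the lost share outside intervals with a skipped peak number (dashed). The lost share climbs to 43.7% in the farthest bin over all peaks and stands at 21.8% there outside those intervals.

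The same held between chromosomes. The lost share ran from 15.8% on chromosome 19, which is dense in genes, to 34.6% on chromosome 13, which is sparse, and the share of skipped numbers from 4.43% to 19.3% on the same chromosomes. Outside the intervals with a skip the lost share was 12.9% on chromosome 19, 19.5% on chromosome 13 and 20.9% on chromosome 20, the highest of the autosomes and X. Over the autosomes and X, gained shares ran from 13.3% on X to 23.5% on chromosome 20, and on chromosome Y 7 of 15 peaks were gained. The 22 autosomes and X differ in gene density, promoter share and peak number, so the plotted points do not separate these.

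**Figure D3:**
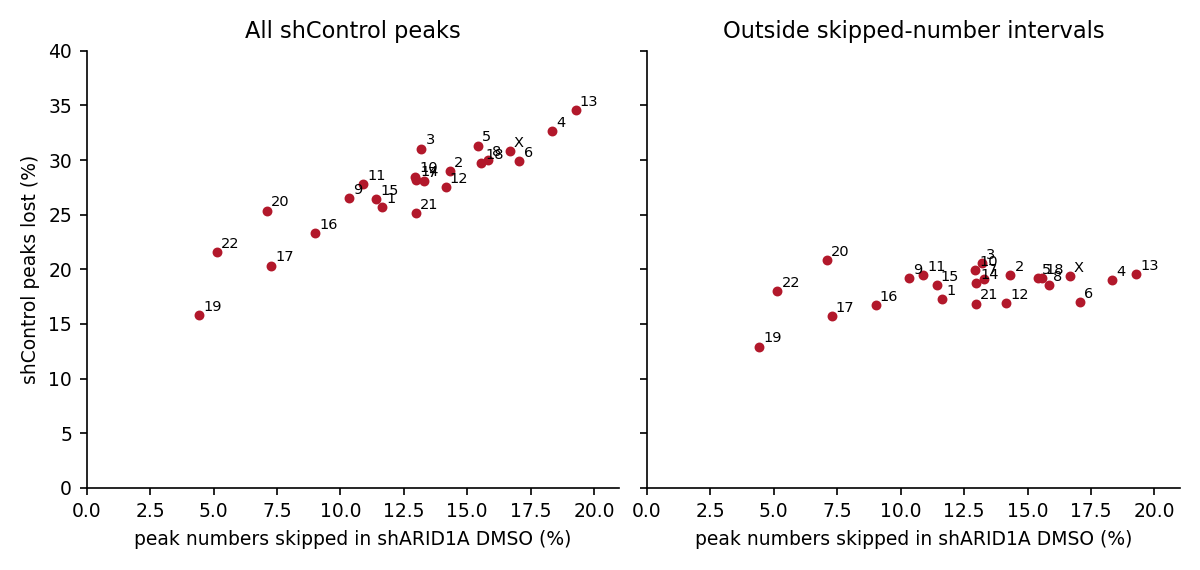
Lost share of shControl peaks against the share of peak numbers skipped in the shARID1A DMSO list, 1 point per chromosome (chromosome Y left out), over all peaks (left) and outside the intervals with a skipped number (right). Chromosomes 19 and 13 mark the ends on the left, at 15.8% and 34.6%, and stand at 12.9% and 19.5% on the right.

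The 12 strongest lost regions included 5 annotated as promoters and none lay in an interval with a skip, but they were narrow, with a median width of 341 bp. The strongest lay at the start of chromosome 12 (chr12:10017-10307), 792 bp from a shARID1A peak. At genes, the promoter of ZNF286A, a zinc-finger gene, ranked 6439 in shControl DMSO and had no overlapping peak in any other list. The promoter of TVP23B, a Golgi vesicle gene, ranked 10596 in shControl DMSO and likewise had none. So for these 2 the region was listed in 1 library of the 4.

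Other strong losses were seen again under rapamycin. In intron 2 of C3orf52 a region at chr3:112097454-112097782 ranked 6768 (13.0% of the list) in DMSO and 15567 (31.3%) after rapamycin in the shControl cells, with no overlapping peak in either shARID1A list. The shared promoter of CENPB, a centromere protein gene, and CDC25B ranked 8693 and 4093 in the DMSO and rapamycin lists of shControl and was absent from both shARID1A lists. CDC25B kept a stronger promoter peak at another start site, ranked 2445 in shControl DMSO and 1928 in shARID1A DMSO. A region at chr4:11505301-11506082, 70974 bp from HS3ST1, a heparan sulfate sulfotransferase gene, ranked 10890 and 18445 in the shControl lists and was likewise absent. The first of the next regions by rank with this pattern lay in SPATA13, a guanine nucleotide exchange factor gene (chr13:24096859-24097773, ranks 11826 and 13548). The remaining ones were 207738 bp from ANKRD55, in an interval with a skip, and 13916 bp from HSPB8, a small heat shock protein gene.

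At the UBE2V1 promoter the loss was limited to DMSO. Its peak ranked 8339 in shControl DMSO, 7355 in shControl rapamycin and 9132 in shARID1A rapamycin, so only the knockdown list in DMSO lacked it, and the nearest peak there was 2175 bp away. UBE2V1 kept another promoter peak, at ranks of 13671 and 8127 in the DMSO lists of shControl and shARID1A. SUN1, which encodes a nuclear envelope protein, had the same pattern at a start site inside the gene, with ranks of 9485, 9870 and 7593, and also kept another promoter peak, at ranks of 20028 and 30614. Regions in intron 1 of CMIP and intron 4 of CRCP were also present in shARID1A rapamycin, at ranks of 29083 and 23315 of 44760. Of the 12 strongest lost regions, 8 were present in shControl rapamycin, 5 in shARID1A rapamycin and 4 in neither.

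The strongest lost promoter peaks outside these 12 were weaker, starting at rank 14832. Those reported here lay at AL133375.1 inside CUL9, a cullin gene, at LINC00115, at AC007278.1 inside IL18RAP, at AF015262.1, at AC090607.1 beside SKIC8, at DERA and at C1orf229. DERA, which encodes deoxyribose-phosphate aldolase, ranked 18305 and 38370 in the shControl lists and was absent from both shARID1A lists, but it lay in an interval with a skip, as did AF015262.1, and a promoter peak kept by position carried the name DERA in shARID1A DMSO, at rank 7119.

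Among gains, the strongest was at -997 bp from the TSS of SKI, which encodes a repressor of TGF-beta signalling (chr1:2227436-2227961). It ranked 2792 in shARID1A DMSO, 2470 in shARID1A rapamycin and 4024 in shControl rapamycin. Only the shControl DMSO list lacked it, with its nearest peak 1408 bp away. SKI had a weaker promoter peak in both DMSO lists, at ranks of 44898 and 34219. The MLLT1 promoter ranked 9091 in shARID1A DMSO, 8849 in shARID1A rapamycin and 7463 in shControl rapamycin. NSG2, a neuronal endosome gene, and LFNG, a glycosyltransferase gene that modifies Notch, gained promoter peaks at ranks of 8336 and 10208, and both were present in both rapamycin lists. LFNG had a promoter peak at another position in shControl DMSO, which was lost. ELOVL3 ranked 9420 in shARID1A DMSO and 15910 in shControl rapamycin. In all these the region was present in the control cells once rapamycin was given.

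Other gains followed the hairpin in both treatments. A region 6385 bp from ID1, which encodes an inhibitor of bHLH factors (chr20:31612895-31613301), ranked 6969 in shARID1A DMSO and 5451 in shARID1A rapamycin and was in no shControl list. A region 18466 bp from HDAC11, a histone deacetylase gene (chr3:13461507-13461840), ranked 9808 and 12536 in the shARID1A lists. Intron 3 of PDLIM1, a cytoskeletal adaptor gene, gained a region at ranks of 12659 and 16596, and a site 2306 bp from ARGLU1 followed the same pattern. The rest of this kind lay 74708 bp from CWH43 on chromosome 4 and on chromosome Y. Of the 12 strongest gains 8 were present in shARID1A rapamycin, 6 in shControl rapamycin and 2 in neither.

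The strongest gained promoters outside these were ZBTB7A, YAF2, LINC00937, SNN, LINC01595, EXT1, AC084018.1 and KLF15. ZBTB7A, a repressor gene of the POK family, ranked 12424 in shARID1A DMSO, 20020 in shARID1A rapamycin and 18274 in shControl rapamycin. KLF15 ranked 15665, 12767 and 22820 in the same lists. YAF2 had another promoter peak in both DMSO lists, at ranks of 8902 and 7718. Of these 8 promoters 6 were present in shControl rapamycin and 5 in shARID1A rapamycin.

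Across all lost regions the rapamycin lists, which the rule did not use, followed the hairpin in part. Of lost regions 42.0% had an overlapping peak in shControl rapamycin (41.2 to 42.8%) and 24.4% in shARID1A rapamycin (23.7 to 25.1%). Gained regions were found in the rapamycin lists in equal measure, 34.1% in shControl (33.0 to 35.1%) and 34.2% in shARID1A (33.2 to 35.2%). Kept peaks weighted to the ranks of the gained ones were in shControl rapamycin in 74.9% and in shARID1A rapamycin in 62.0% of cases, and weighted to the ranks of the lost ones in 72.8% and 65.4%. Lost regions present in shControl rapamycin alone made up 26.0%, against 19.0% of kept peaks at those ranks, and those in shARID1A rapamycin alone 8.39% against 11.6%. Gained regions present in shARID1A rapamycin alone made up 16.1%, against 9.52% of kept peaks, and those in shControl rapamycin alone 16.0% against 22.4%. About as many calls of each kind, 49.6% of losses and 49.8% of gains, were in neither rapamycin list, against 15.6% of kept peaks at the same ranks.

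Stronger regions were found in the rapamycin lists more often than weak ones. Of the 1150 peaks lost in the upper 50% of scores, 76.3% were in shControl rapamycin against 43.4% in shARID1A rapamycin. Kept peaks at those ranks were in these lists in 95.7% and 91.2% of cases. Of the 468 peaks gained in the upper 50%, 72.9% were in shARID1A rapamycin and 60.9% in shControl rapamycin, against 96.1% and 96.3% of kept peaks at those ranks. Part of any shortfall below kept peaks follows from the rule, as said above. The shortfall was larger in shARID1A rapamycin for losses and in shControl rapamycin for gains. Lost peaks in intervals with a skip were also the stronger ones, with a median rank of 76.7% against 82.8% elsewhere. Those in intervals with a skip were in shARID1A rapamycin in 30.4% of cases (29.2 to 31.6%), against 20.2% elsewhere (19.4 to 21.1%), and in shControl rapamycin in 50.5% against 36.0%. Kept peaks at the same ranks were in shARID1A rapamycin in 67.7% and 63.7% of cases and in shControl rapamycin in 75.1% and 71.1%. The shControl rapamycin list itself skips 1093 numbers (2.15%), and the part of these in its shares was not tested.

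**Figure D4:**
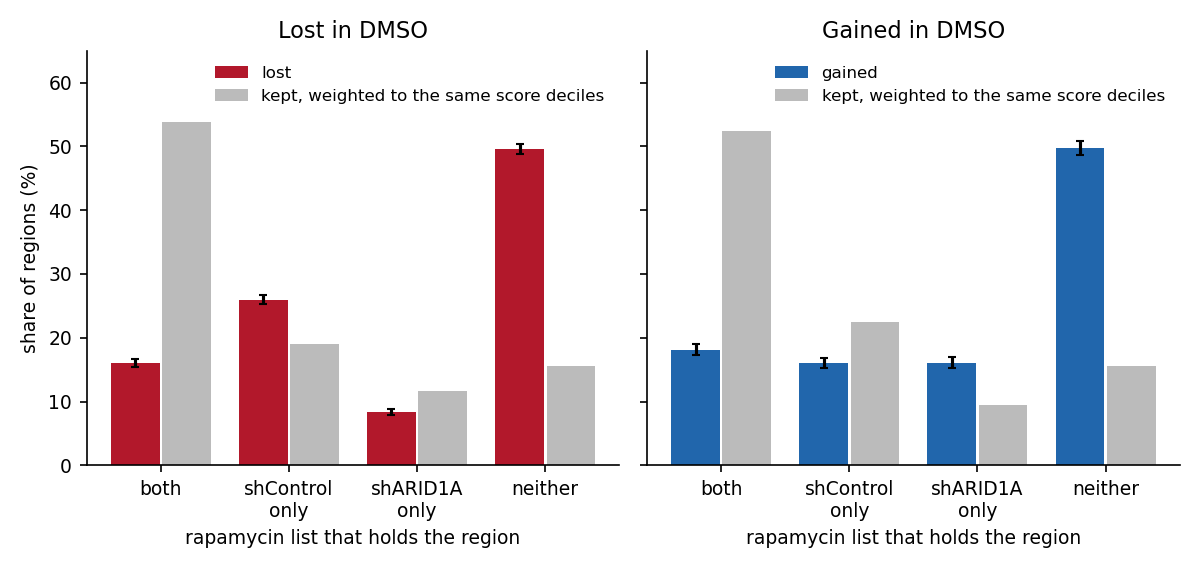
Share of regions lost (left) or gained (right) in DMSO that overlap a peak in both rapamycin lists, in the shControl list only, in the shARID1A list only or in neither, with exact 95% intervals, beside kept peaks weighted to the same score deciles (grey). Lost regions exceed kept ones in the shControl-only class, 26.0% against 19.0%, and gained regions in the shARID1A-only class, 16.1% against 9.52%. Kept peaks were in both DMSO lists by the rule, which by itself favours their presence in a further list.

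Promoter changes at the level of genes were few once positions were followed. By the nearest-gene column, 2216 of 12880 genes with a shControl promoter peak had none in shARID1A (17.2%), and 2233 of 12897 went the other way (17.3%). These tallies include peaks that were kept by position but carry another name or distance in the other list. Every promoter peak of the gene was lost by position at 695 genes (5.40%) and gained at 743 (5.76%).

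The promoters that lost a peak were unlike those that kept one in sequence. RefSeq windows overlapping a lost peak only, 383 windows under 337 peaks, were CpG-poor (a CpG ratio under 0.6) in 75.5% of cases (70.8 to 79.7%). Windows with a peak in both lists were CpG-poor in 14.7% of 15295 cases, windows with a gained peak in 43.0% of 512, and windows with no peak in 81.9% of 18239. Lost promoters therefore stood close to the unmarked ones and gained promoters in between. Windows of both lists weighted to the ranks of lost peaks were CpG-rich in 66.6% of cases, against 24.5% of lost windows. Weighted to the ranks of gained peaks they were CpG-rich in 51.6%, against 57.0% of gained windows.

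AP-1 and FOXA motifs were more frequent in lost than in kept CpG-poor promoters. Among CpG-poor windows an AP-1 match was present in 21.8% of 289 lost windows (17.2 to 27.0%), 13.5% of 2245 windows with a peak in both lists (12.1 to 14.9%), 11.4% of 220 gained windows (7.49 to 16.3%) and 11.8% of windows with no peak. A FOXA match was present in 20.8% of lost (16.2 to 25.9%), 11.8% of kept (10.5 to 13.3%), 10.9% of gained and 9.56% of unmarked windows. In the 162 lost windows outside intervals with a skip the share was 18.5% for AP-1 (12.9 to 25.4%) and 20.99% for FOXA (15.0 to 28.1%), so for AP-1 the interval then includes the kept share. TEAD matches were in 21.8% of lost, 18.8% of kept and 20.5% of gained CpG-poor windows. CTCF matches were in 4.84% of lost (2.67 to 7.99%), 2.94% of kept, 2.27% of gained and 1.81% of unmarked CpG-poor windows. Windows that lie under 1 peak or belong to neighbouring starts of a gene share sequence, so these intervals are too narrow. Over all windows ETS matches were in 2.87% of lost, 4.88% of gained and 18.9% of kept promoters, and SP1 matches in 27.2%, 57.6% and 71.6%. Kept windows weighted to the ranks of lost peaks held ETS in 7.72% and SP1 in 61.8% of cases, and weighted to those of gained peaks in 6.29% and 52.5%, below the gained SP1 share. The contrast among CpG-poor windows was not weighted by rank. Over all windows AP-1 was in 17.0% of lost windows against 5.41% of kept ones at those ranks, and FOXA in 16.2% against 7.81%. For gained windows the values were 6.64% against 10.6% for AP-1 and 6.45% against 9.50% for FOXA. CpG class was not held equal in these values: kept windows at the ranks of lost peaks were CpG-rich in 66.6% of cases, lost windows in 24.5%. In CpG-rich windows of both lists AP-1 matched 3.07% and FOXA 4.01%, against 13.5% and 11.8% in CpG-poor ones. No contrast was matched for rank and CpG class at once.

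The printed promoters are chosen examples and do not stand for all lost or gained ones. KCNJ16 had an AP-1 match, ranked 22495 in shControl DMSO and was present in shControl rapamycin but in no shARID1A list, in an interval with a skip. SPATA12 (rank 26154, also in an interval with a skip) and IGF1 (rank 29011, with no skip) had the same presence in the lists. The lost NR1H4 peak ranked 38349 and was also in shControl rapamycin. NR1H4 encodes FXR, the bile acid receptor.

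For 382 genes in 19 lists of pathways and cell types, a wider promoter definition was used. A peak counted by its distance or by an annotation that names the promoter of the gene. A promoter peak was present in both DMSO lists at 280 genes, absent from both at 63, lost at 5 and gained at 11, and at 23 only the name moved. Over all genes, by distance alone, every promoter peak was lost at 695 of 12880 (5.40%) and gained at 743 of 12897 (5.76%). The definitions differ, so no excess or lack in the 19 lists can be read from these counts. The lost ones were NR1H4, HP (haptoglobin, a plasma protein of hepatocytes), CD3D (a T cell receptor chain gene), FOXF2 and TWIST1 (transcription factor genes of mesenchyme). FOXF2 and TWIST1 lay in intervals with a skip. The gained ones were AHSG and APOA2 (an apolipoprotein gene of hepatocytes), the SWI/SNF subunit genes ACTL6B, BCL7A and SMARCD3, the epithelial cadherin gene CDH1, FJX1, TEAD2, ELOVL6 (a fatty acid elongase gene), HK1 (hexokinase) and RXRA (the partner of nuclear receptors). The peaks of BCL7A and HK1 counted by annotation alone, at -1791 and -18062 bp by the authors' distance. All were weak: the lost peaks ranked between 63.8% and 95.8% of the shControl list and the gained between 55.6% and 95.2% of the shARID1A list. The gained peaks of APOA2, HK1 and SMARCD3 were present in both rapamycin lists, that of CDH1 in shARID1A rapamycin only, those of ELOVL6 and RXRA in shControl rapamycin only, and the other 5 in neither. ELOVL6 and the 10 kb around it nevertheless held 8 peaks in shControl DMSO and 3 in shARID1A DMSO. There 6 peaks were lost, all in intervals with a skip.

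CDH1 showed several gains in 1 gene. Its promoter peak at chr16:68737236-68737612 ranked 37838 in shARID1A DMSO and was present in shARID1A rapamycin at 64.0% of the list, and a region in its intron 2 at chr16:68738177-68738696 ranked 27181. In the gene and 10 kb around it 5 peaks were gained and 1 was lost, and the shControl lists held 6 peaks in DMSO and 6 after rapamycin, the shARID1A lists 10 and 9. Both shARID1A lists were thus above both shControl lists. The mesenchymal cadherin gene CDH2 held 14, 11, 10 and 10 peaks in the same order. Other genes of these cell states went the other way in DMSO: the mesenchymal gene FN1 (fibronectin) held 10, 12, 12 and 10 peaks, and the epithelial genes EPCAM, OCLN and CLDN7 each held 3 in shControl DMSO and 2 in shARID1A DMSO. At EPCAM and at CLDN7 the 1 lost peak lay in an interval with a skip. The shControl and shARID1A rapamycin lists held equal numbers there, 2 and 2 at EPCAM and 1 and 1 at CLDN7.

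For the gene lists, peaks were counted in the gene and 10 kb around it, since the nearest-gene column often names a neighbouring noncoding RNA. Over 17067 protein-coding genes with a peak there, 28.3% had fewer and 18.5% more peaks in shARID1A, and 20.9% of shControl peaks were lost and 15.4% of shARID1A peaks gained. Over the 19 lists the lost share ran from 7.46% to 35.7% and the gained share from 0% to 22.9%. Ribosomal protein genes lost 5 of 67 peaks (7.46%) and gained 5 of 68 (7.35%), AP-1 and immediate early genes lost 6 of 61 (9.84%) and gained 5 of 59 (8.47%), and cell-cycle genes lost 9 of 77 (11.7%) and gained 6 of 72 (8.33%).

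YAP/TEAD target genes lost 30 of 117 peaks (25.6%) and gained 14 of 101 (13.9%), with fewer peaks at 9 genes, more at 3 and equal numbers at 9. Of the 30 lost peaks 11 lay in intervals with a skip. By the nearest-gene column 11 of the 21 genes had fewer and 2 more, beside 33.0% and 19.4% of all 31476 genes named, of which 34.2% had a lost and 21.2% a gained peak. By the same column 20 of their 72 shControl peaks (27.8%) were lost and 10 of 60 shARID1A peaks (16.7%) gained, close to the 27.6% and 17.7% over all peaks. Single genes that kept their promoter peak are named here and in the next paragraphs after their values were seen. MYOF, a membrane repair gene, held 8, 7, 5 and 5 peaks in the DMSO and rapamycin lists of shControl and then of shARID1A. NT5E, encoding the ecto-enzyme CD73, held 5, 3, 3 and 2. CRIM1, a BMP-binding membrane protein gene, held 10, 11, 7 and 8.

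Hippo pathway genes lost 23 of 100 peaks and gained 19 of 97 (19.6%). The transcription factor gene TEAD1 held 10 peaks in shControl DMSO and 12 in shARID1A DMSO. Liver nuclear receptor genes lost 18 of 75 peaks (24.0%) and gained 15 of 73 (20.5%), hepatocyte genes lost 16 of 85 (18.8%) and gained 9 of 76 (11.8%), and progenitor and biliary genes lost 13 of 59 (22.03%) and gained 8 of 53 (15.1%). At APOB, which encodes the lipoprotein of VLDL, 3 of 5 shControl peaks were lost, the rapamycin lists held 2 peaks in shControl and 3 in shARID1A, and the promoter peak was kept, at 26.5% and 30.3% of the DMSO lists. Genes of epithelial-mesenchymal transition lost 21 of 93 (22.6%) and gained 18 of 88 (20.5%), TGF-beta genes 22 of 125 (17.6%) and 15 of 121 (12.4%), and Wnt targets 13 of 59 (22.03%) and 7 of 53 (13.2%).

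SWI/SNF subunit genes lost 23 of 102 peaks (22.5%) and gained 15 of 93 (16.1%). SMARCA4, which encodes the BRG1 ATPase of the complex, held 7 peaks in DMSO and 5 after rapamycin in the shControl lists and 2 in each shARID1A list, and its promoter peak was kept at 18.6% and 13.9% of the DMSO lists. Of the 5 peaks lost there 2 lay in intervals with a skip, and the 3 that carry the name SMARCA4 ranked from 84.5% to 99.0% of the list. ARID1A itself kept both of its annotated promoter peaks in every list. The peak at chr1:26692316-26693427 stood at 14.6% (DMSO) and 18.2% (rapamycin) of the ranked shControl lists and at 17.7% and 17.9% of the shARID1A lists. A hairpin acts on the transcript, so these peaks do not check the knockdown.

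The mTOR list lost 16 of 100 peaks (16.0%) and gained 6 of 91 (6.59%), and cholesterol and fatty acid synthesis genes lost 13 of 92 (14.1%) and gained 11 of 92 (11.96%). Counted in the gene and 10 kb around it, glycolysis and gluconeogenesis genes had the highest gained share of the 19 lists. It was above their lost share, 16 of 70 (22.9%) against 13 of 67 (19.4%). By the nearest-gene column the order was reversed, with 3 of 31 gained (9.68%) and 5 of 33 lost (15.2%). Markers of other cell types had few peaks. Leukocyte markers had promoter peaks at 3 of 8 genes in shControl DMSO and 1 in shARID1A DMSO, endothelial markers at 1 and 1, stellate cell and fibroblast markers at 2 and 3, and neuron markers at 6 and 6. Of these differences only that at CD3D was a loss by position, while at CD14 and COL1A1 only the name moved. Hepatocyte genes had promoter peaks at 16 of 29 genes in shControl DMSO and 17 in shARID1A DMSO. Peaks near the marker lists were lost in 6 of 20, 2 of 16, 5 of 14 and 11 of 43 cases in the order above, and their part in other results was not tested.

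**Figure D5:**
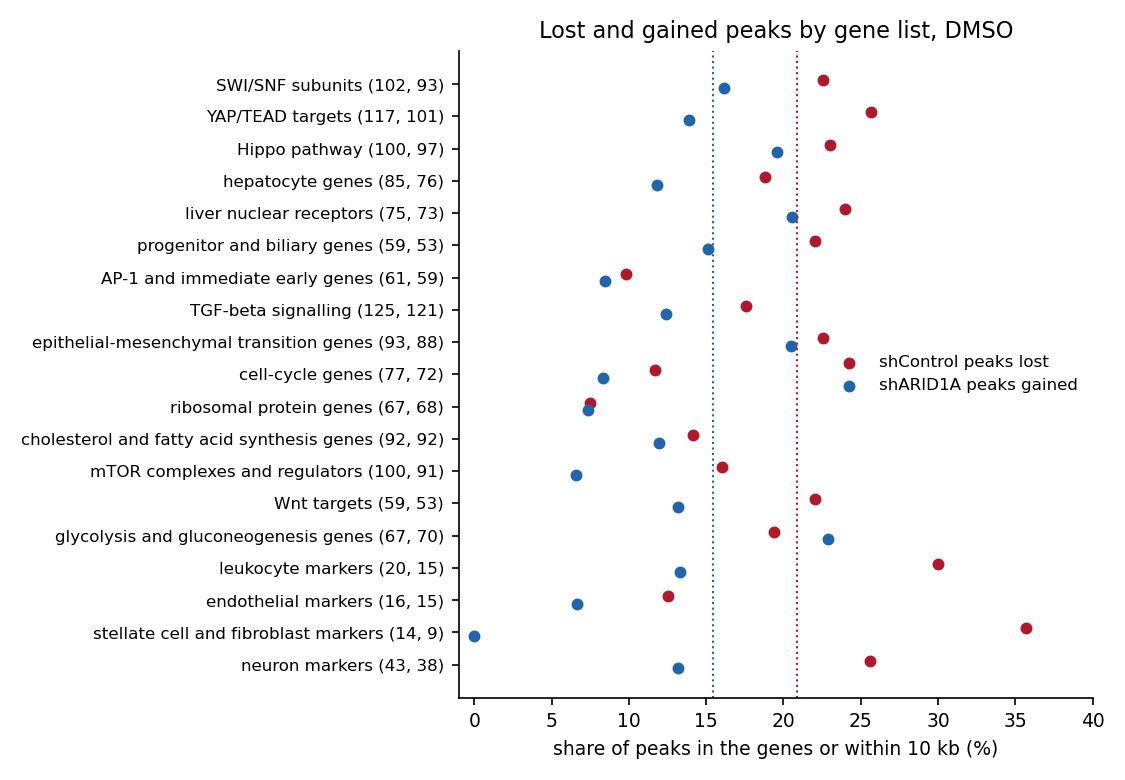
Share of shControl DMSO peaks lost (red) and of shARID1A DMSO peaks gained (blue) in the genes of each list or within 10 kb, with the number of shControl and shARID1A peaks in brackets and dotted lines at the values over all protein-coding genes, 20.9% and 15.4%. The ribosomal protein, AP-1, cell-cycle, mTOR, cholesterol and fatty acid, TGF-beta, hepatocyte and endothelial lists lie below both lines. YAP/TEAD targets stand at 25.6% lost and 13.9% gained. The shares mix promoter and distal peaks.

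The loci with most lost and no gained peaks were picked from these same calls, so their counts are extremes by choice. Of the 31476 genes named in either list, 2.31% had 3 or more lost peaks. DGKK, a diacylglycerol kinase gene on chromosome X, was the nearest gene of 12 shControl and 2 shARID1A peaks, and 8 of them were lost with none in an interval with a skip. All 8 were weak, from 64.4% of the list downward, and 4 were in shControl rapamycin and 1 in shARID1A rapamycin. TFAM, a mitochondrial transcription factor gene, named 11 and 2 peaks, and 6 were lost, of which 3 lay in such intervals. None of these 6 lay in TFAM. They were 67550 to 160882 bp from its TSS, between TFAM and BICC1 or in intron 1 of BICC1. In and near CDH2, under the name AC110015.1, 6 of 9 peaks were lost, 4 of them in such intervals, and in PTPRK, a receptor phosphatase gene, under the name AL034349.1, 6 of 12, with 3 in such intervals. Outside ADGRL2, under the name AL157944.1, all 6 shControl peaks were lost and all lay in intervals with a skip. The other 3 loci were named for RN7SKP183, RNU6-475P and RPA2P2, with RPS6KA3, HS3ST5 and SH2D4B as the nearest protein-coding genes, and 5 of 7, 6 of 7 and 6 of 6 lost peaks there lay in intervals with a skip.

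Loci with most gained and no lost peaks were picked in the same way, while 0.705% of the genes named had 3 or more gained peaks. The first was CNGA3, a photoreceptor channel gene, where AC092675.2 named 1 shControl and 8 shARID1A peaks and 6 were gained. Of these, 1 was present in the rapamycin lists. RBPMS, WFS1 with PPP2R2C, TBC1D14, DAB2IP, ABR, ADAP1 and a locus on chromosome Y gained 4 or 5 each. The lack of a loss at these loci was a condition of the choice. Over the 8 genes so chosen, 36 regions were gained, 22 were in neither rapamycin list, and the median width of the 36 was 459.5 bp.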

How the data were processed

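ATAC-seq was done on 4 Huh7 samples, 1 per group. Reads were aligned with BWA to hg38 and peaks called with MACS2 2.0, per the submitters' processing notes. Each deposited list gives coordinates, a peak score by the authors, an annotation, a distance to the nearest TSS and the nearest gene. No source used here gives the score's scale, the call settings or the read depths. Whether starts count from 0 or 1 was not settled, so positions are printed as deposited. Groups were taken from the labels.

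From the lists, peaks sharing at least 1 base were counted as overlapping, and scores were used for ranks and deciles within a list. Intervals are exact (Clopper-Pearson, 95%). Intervals between listed neighbours in which numbers of the shARID1A list were skipped were marked. Of 382 genes in the 19 lists, 272 had a window in the RefSeq table of GRCh38.p14, which was used for promoter letters and, for gene bodies, names and positions. Python 3.11.15, pandas 2.3.3, NumPy 2.4.6, SciPy 1.17.1 and matplotlib 3.10.9 were used, and the overlap code was tested on simulated data.

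Named regions are the 12 strongest lost and gained, the next 8 promoter peaks of each and the 8 strongest lost outside intervals with a skip. The 6 strongest of each that held under rapamycin are also named. So are the 8 genes with most lost and no gained peaks and the 8 of the converse. ARID1A and genes of the lists with a promoter call complete the rule. A region that falls under this rule is not reported here. The printed promoters of KCNJ16, SPATA12 and IGF1 fall outside that rule and are examples with an AP-1 or FOXA match. The members and lists were chosen with earlier results of these data known. Alternatives covered the overlap, the upper 50% of scores, lists of equal length, skipped numbers and the promoter definition. Setting aside lost peaks per skipped number, weighting by decile and promoter calls by position were added after seeing the data.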

Additional observations from a re-analysis of the deposited data

Results flagged for a closer look

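A few counts moved in opposite directions under the 2 treatments. Each is the number in shARID1A minus the number in shControl, from 1 library per group, and the difference between treatments was not tested. Promoter peaks differed by 17 in DMSO and by -110 after rapamycin. Genes with a promoter peak differed by 17 in DMSO and by -148 after rapamycin. Peaks in or within 10 kb of cell-cycle genes differed by -5 in DMSO and by 5 after rapamycin. For glycolysis and gluconeogenesis genes the differences were 3 and -8, for endothelial markers -1 and 2, and for stellate cell and fibroblast markers -5 and 1. The marker lists hold 8 genes each, so these last differences rest on few peaks.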

How the results depend on the processing

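No paired analysis was possible because each group holds 1 library, and for the same reason no replicate could be left out. Of the alternative values, 52 stayed within the counting interval of a share or within 1.5 times a count, and 36 did not. Some of the 52 could not move. The promoter definition does not enter the counts of all lost or gained peaks or the rapamycin values. Overlap does not enter the gene counts by name, and the shControl list skips no number, so gained values stay. Promoter shares weighted to promoter deciles equal themselves. The tally is therefore no measure of stability. Reported values are 14428 lost and 8079 gained peaks, lost shares of 5.82% (promoter) and 34.9% (distal), gained shares of 6.56% and 22.1%, 2216 and 2233 genes with a promoter peak lost or gained, 75.6% of losses also missing from shARID1A rapamycin and 34.2% of gains present there. With an overlap of 50% of the shorter peak, lost shares were 6.35% and 36.5%, gained shares 7.08% and 24.1%, and the rapamycin values 77.6% and 31.8%. In the upper 50% of scores, 1150 peaks were lost and 468 gained, with lost shares of 0.472% and 7.004%, gained shares of 0.606% and 3.29%, 1318 and 1341 genes, and rapamycin values of 56.6% and 72.9%. With lists of equal length, 9439 peaks were lost, lost shares were 3.67% and 27.1%, gained shares 7.81% and 25.9%, and the rapamycin values 69.2% and 36.6%. Outside intervals with a skipped number, 8460 peaks were lost, with shares of 3.94% and 23.9% and a rapamycin value of 79.8%. With promoters within 2500 bases, lost shares were 9.36% and 35.7% and the promoter gained share 9.13%. By the annotation column, distal shares were 33.3% lost and 21.1% gained. Of the alternatives added after seeing the data, weighting by decile gave distal shares of 12.2% lost and 6.77% gained, and following positions left 695 and 743 genes. With lists of equal length the numbers lost and gained (9488) are nearly equal by construction, so they say nothing of an excess. The lost share was higher at distal than at promoter peaks in each alternative. The causes were not tested. Without read depth or replicates, a missing peak cannot be told apart from one just under the calling threshold.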
